A study of Mus musculus with 22 samples.

Results

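The 84 cytosolic ribosomal protein genes of the mouse colon epithelium were followed across 6 sorted cell types. They were chosen by symbol, as every gene named Rpl or Rps with a number (and, for some, a closing letter or digit) together with Rplp0, Rplp1, Rplp2 and Rpsa, and they made up 84 of the 24421 genes in the count tables. Of these, 51 belonged to the large subunit series (Rpl) and 33 to the small subunit series (Rps), and 83 were annotated as protein coding. The exception was Rps4l, annotated as a transcribed processed pseudogene. The rule uses symbols only.

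The study sorted epithelial cells (Cd31- Cd45- Epcam+) from colons of untreated wild-type male C57BL/6N mice, 5 to 7 weeks old, by their surface Cd44, Cd24 and Ckit. RNA sequencing libraries were made from stem cells (Stem; Cd44 highest, Cd24 low, Ckit-; n = 3), absorptive progenitors (AbsPro; Cd44 medium to high, Cd24 low, Ckit-; n = 3), secretory progenitor, deep crypt secretory and goblet cells taken as a single gate (SecPDG; Cd44 high, Cd24 medium, Ckit medium; n = 4), tuft cells (Tuft; Ckit+, Cd24 high; n = 5), enterocytes (Enterocyte; Cd44 low or negative, Cd24-; n = 5) and enteroendocrine cells (EEC; Cd44 low or negative, Cd24+; n = 2). Stem and AbsPro libraries came from single mice, whereas the rarer cells were pooled over mice to reach at least 2500 cells, and the replicates were separate sorts. All groups are therefore the same strain, sex, age range and treatment, and differ by gate and by whether cells were pooled over mice.

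Cytosolic ribosomal proteins assemble with ribosomal RNA in the nucleolus into the small subunit, which reads the mRNA, and the large subunit, which joins amino acids. Because each ribosome takes about a single copy of most of these proteins, their genes are usually expressed together, and many of the mRNAs begin with a 5′ terminal oligopyrimidine tract (a C followed by an unbroken run of C and T), through which mTOR signalling and Larp1 control their translation. In the crypt, dividing stem and progenitor cells at the base are known for high rates of ribosome production and of protein synthesis.

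The 5′ ends of the mRNAs are shown for members with a tract and for members without it, since this sequence is the feature by which the family is best known as a co-regulated group. The first 24 bases of the reference transcript in GRCm38 are printed in lower case, with the tract in capitals.
Rps24: CTCTTTTCCTCCTCTCCagctccg
Rpl32: CTTCCTTCTTCCTCggcgctgcct
Rpl37: CTCTTCCggtctctttggcctcgc
Rpl4: CTTTTCCTgtgggagcagccgggt
Rplp1: gatCTTTTCCTCagctgccgccaa
Rpl22: gCCCCCCTCCCTTTCTgcctcctc
Rpl22l1: gttgcgtatttcgcacgctctgcg
Rps27l: gcctctatcccggaagttgctgag
Rpl7l1: cgcagtagctgaagcaccggaaag
These transcripts start at position 24490718 of chromosome 14 for Rps24, 115808747 of chromosome 6 for Rpl32, 5116645 of chromosome 15 for Rpl37, 64173375 of chromosome 9 for Rpl4, 61914542 of chromosome 9 for Rplp1, 152325853 of chromosome 4 for Rpl22, 28805436 of chromosome 3 for Rpl22l1, 66946086 of chromosome 9 for Rps27l and 46782656 of chromosome 17 for Rpl7l1. Rpl32, Rplp1 and Rpl7l1 lie on the minus strand and the others on the plus strand. The tract ran for 17 bases in Rps24, 14 in Rpl32, 7 in Rpl37, 8 in Rpl4, 9 in Rplp1 and 15 in Rpl22. No tract was found in the first 30 bases of Rpl22l1, Rps27l or Rpl7l1, which are paralogs of Rpl22, Rps27 and Rpl7. Of these, Rpl22 and Rps27 had a tract in that window and Rpl7 had none.

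A tract of at least 6 bases, a C followed by C or T only, began within the first 30 bases of 32 of the 83 members with a coding transcript (38.6%), compared with 4293 of 21875 coding genes (19.6%). Counting only tracts that began in the first 5 bases, the shares were 18 of 83 members (21.7%) and 5.43% of all coding genes. The annotated start is not a measured cap site, so an absent tract says only that these letters were not found in the window. Of the other gene lists described here, 9 of 16 elongation factors and related tract mRNAs held one in the first 30 bases (56.2%). Of 77 mitochondrial ribosomal protein genes, 10 did (13%). Counting only tracts that began in the first 5 bases, these were 2 of 16 (12.5%) and 3 of 77 (3.9%).

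A promoter of 300 bases (250 before and 50 after the start, RefSeq, GRCm38.p6) was at hand for 63 of the 84 members. A gene was counted if any promoter listed for it held the letters. The letters CCGGAAG, the core bound by ETS factors such as GABP, were found on either strand in 26 of these 63 (41.3%) and in 9.93% of all 27025 genes with a promoter. AAGATGG, the core of the YY1 site, was found in 10 (15.9%, against 7.28%). CACGTG, the E-box bound by Myc, was found in 6 (9.52%, against 8.09%) and TATAAA in 7 (11.1%, against 15.7%). These are matches of letters only, and no binding was measured.

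Gene counts per library ranged from 4122122 (EEC 1) to 22462518 (Stem 2), and the share of reads falling outside annotated genes differed between cell types. It was 32.4% to 41.2% in the Stem, AbsPro and SecPDG libraries and 35.9% in Tuft 5, but 50.3% to 56.3% in Tuft 1 to 4, 68.3% to 70.0% in Enterocyte 1 to 3, 55.5% and 56.0% in Enterocyte 5 and 4, 74.3% in EEC 1 and 54.2% in EEC 2. Olfactory and vomeronasal receptor genes, taken here as genes with little expression in colon epithelium, rose with it. Their summed level had a mean of 66.8 CPM (a count scaled to its library total) in Stem, 902 in Tuft and 2461 in Enterocyte. It was 6691 in EEC 1 against 587 in EEC 2. Spread over gene length, this level equalled a median of 0.0264% of a member's count in Stem, 0.579% in Tuft, 1.56% in Enterocyte and 3.31% in EEC (members whose mean normalized count was 50 or more). The cell type labels matched their markers for stem cells (915 CPM summed over the stem list in Stem, the highest of the 6 groups), tuft cells (2952 in Tuft) and enteroendocrine cells (94031 in EEC). Goblet and deep crypt secretory markers summed to 83216 in SecPDG but also to 72061 in Tuft and 37556 in Enterocyte, and the enterocyte list was nearly level between AbsPro (4951), Enterocyte (5592) and EEC (5658). The EEC replicates were the least alike, with a Spearman correlation of 0.729 across genes against 0.874 to 0.973 for all other replicate pairs.

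Ribosomal protein genes took the largest share of gene counts in stem cells and the smallest in enteroendocrine cells. Reads with more than 1 place in the genome are not in these counts. In the Stem libraries they received 1.94%, 2.16% and 2.26% of all gene counts, a mean of 2.12% ± 0.162 (SD, n = 3). The AbsPro libraries had 1.72%, 1.67% and 1.5%, below every Stem library. SecPDG libraries held 1.3%, 0.897%, 1.38% and 1.59%, with a mean of 1.29% ± 0.292 (n = 4), which overlapped AbsPro at its upper end. Tuft libraries ranged from 0.678% to 1.44% around a median of 1.03% and Enterocyte libraries from 0.665% to 1.29% around 0.934%, so that these 2 groups did not separate from each other. Both EEC libraries (0.449% and 0.411%) lay below all other libraries. With reads outside genes added to the total, EEC 2 (0.145%) lay above Enterocyte 1 (0.111%), and EEC 1 was lowest. The order of the means was Stem, AbsPro, SecPDG, Tuft, Enterocyte and EEC, of which AbsPro and SecPDG, SecPDG and Tuft, and Tuft and Enterocyte overlapped as neighbours.

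**Figure D1:**
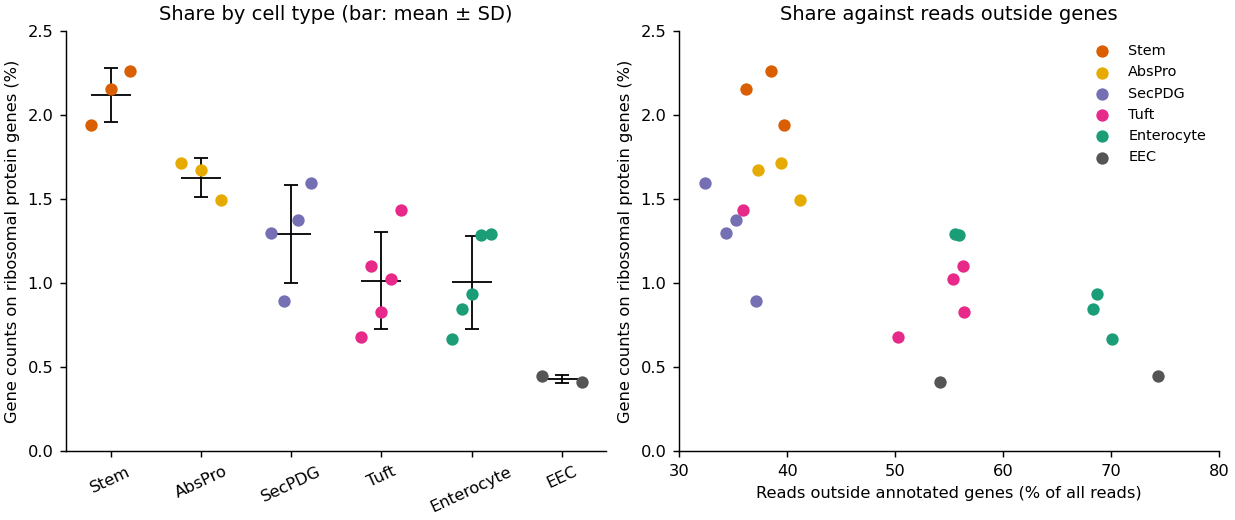
Left, the share of gene counts on the 84 ribosomal protein genes (%) for each library by cell type, with bars for the mean ± SD. Right, the same share against the percent of reads outside annotated genes. All 3 Stem libraries lie above the other 19, both EEC libraries lie lowest, and the Tuft and Enterocyte libraries with fewer reads outside genes (Tuft 5, Enterocyte 4 and 5) have the highest share within their group.

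Within the Tuft and the Enterocyte group, the highest shares were in the libraries with the fewest reads outside genes (Tuft 5, Enterocyte 4 and 5). Tuft 5 had 1.44% where Tuft 1 to 4 had 0.678% to 1.1%, and Enterocyte 4 and 5 had 1.29% each where Enterocyte 1 to 3 had 0.665% to 0.934%. The EEC pair did not follow this, since EEC 2, with fewer reads outside genes, had 0.411% and EEC 1 had 0.449%. Among Tuft 1 to 4 and among Enterocyte 1 to 3 the order did not hold either. Tuft 1, with 50.3% of reads outside genes, had 0.678%, and Tuft 2, with 56.3%, had 1.1%. Enterocyte 2, with 68.3%, had 0.844%, and Enterocyte 3, with 68.7%, had 0.934%. When the 10 most abundant genes of each library were left out, the shares were 2.48% in Stem, 1.88% in AbsPro, 1.54% in SecPDG, 1.19% in Tuft, 1.15% in Enterocyte and 0.530% in EEC, the same order. The part that reads outside genes play in the differences between cell types was not tested. In bulk samples such as these, fewer cells of a type and less RNA per cell cannot be told apart.

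The genes differed widely in level, and only values per kilobase of transcript allow them to be compared. Averaged over all 22 libraries, the highest were Rplp1 (21948 normalized counts per kilobase), a protein of the acidic stalk that recruits elongation factors, Rpl8 (15515) and Rpl22 (12896), followed by Rplp0 (12772), the base of that stalk, and Rpl41 (11374). The lowest were Rpl26 (0), Rpl10l (8.92) and Rps27 (11.3). The members thus differed by orders of magnitude in these counts. Only reads with a single place in the genome were counted, and 15.5% to 20.8% of reads in a library had more than 1 place.

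Members whose sequence is repeated in other genes had lower counts. Of all 84 members, 36 shared over 50% of their 100-base stretches with transcripts of other genes and had a median of 456 counts per kilobase. In the 39 that shared up to 50% the median was 1825, and in the 9 that shared none it was 2303. Across the 84 genes, which are not independent, the Spearman correlation between the shared percent and the level per kilobase was -0.372. The scatter was large, since Rps2 had 64.7% of its stretches in 36 other genes but was among the well counted members. Of the 9 members that shared none, 3 had a mean under 50 normalized counts, as did 2 of the 36 that shared over 50%. Levels between members are uncertain, and the part of shared sequence in them was not tested. The comparisons between cell types set each gene against itself. Reads with more than 1 place had a mean of 19.0% in Stem, 17.7% in AbsPro, 20.4% in SecPDG and 16.6% in Tuft, Enterocyte and EEC. Their part in these comparisons was not tested.

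**Figure D2:**
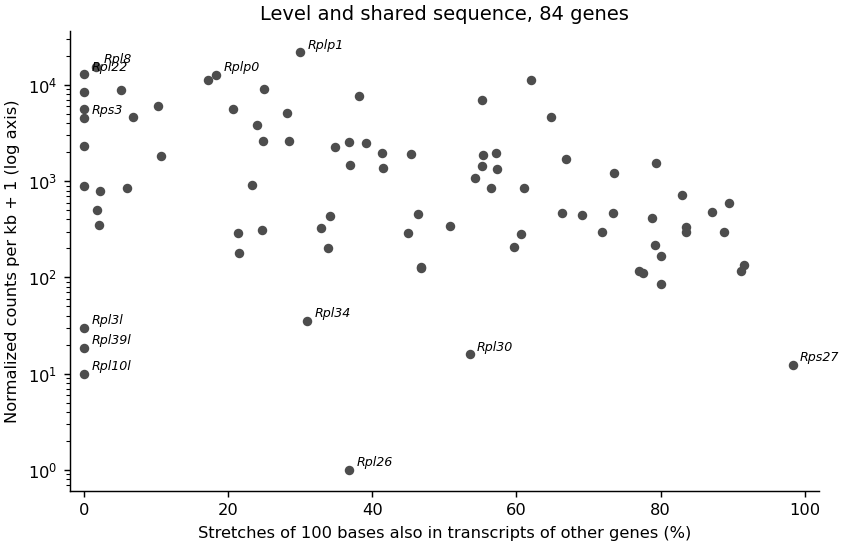
Each point is 1 of the 84 ribosomal protein genes, placed by the percent of its 100-base stretches that also occur in transcripts of other genes (x axis) and by its mean normalized counts per kilobase plus 1 over 22 libraries (y axis, log scale). Rpl26 is at 0 with 36.8% shared and Rps27 is near the bottom with 98.4% shared, while Rpl10l, Rpl39l and Rpl3l are low with none shared.

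There were 7 members with a mean under 50 normalized counts (counts scaled to a common effective library size of 13676285). Rpl26 had 0 counts in all 22 libraries, although Rpl26 is a usual part of the large subunit, and by counting error alone a 0 allows up to 3 reads a library. The gene annotation used for the counting was not used here, so whether reads of Rpl26 could be counted at all was not tested. Rps27 had 0 to 15.4 normalized counts, Rpl30 had 0 to 96.4 and Rpl34 had 0 to 93.4. The other 3 were Rpl10l, Rpl39l and Rpl3l, relatives of Rpl10, Rpl39 and Rpl3 known from testis (the former pair) and muscle. Rpl39l was at 0 in all 3 Stem libraries and between 6.92 and 41.3 in the Enterocyte libraries, and stood at 52.4 and 0 in the EEC libraries. Rpl3l was 65.8, 7.04 and 6.74 in Stem and 174 and 0 in EEC. The highest value of each of these 3 genes was in EEC 1 or Enterocyte 3, where reads outside genes were many, and the part of these reads was not tested. After the filter on low counts 83 members were tested (all but Rpl26), of which 77 had a mean of 50 or more and could be called.

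The stem cells were first compared with their immediate progeny. No member was called in AbsPro versus Stem (edgeR quasi-likelihood test, p-values adjusted by Benjamini-Hochberg over all genes, threshold 0.01, for genes whose mean normalized count was 50 or more, called expressed genes from here on), nor did any pass an unadjusted p of 0.05 or the DESeq2 test. In this comparison 0.0219% of the 22781 genes tested were called lower and 0.342% higher. The fitted log2 fold changes were nevertheless mostly below 0: 74 of 83 members, with a median of -0.31 where the median of all expressed genes was 0.04. Every AbsPro library lay below every Stem library for 24 members, compared with 10.5% of expressed genes. Single members had fitted values such as those of Rps2 (-0.40, adjusted p = 0.835), a protein at the mRNA entry site, Rps19 (-0.52, adjusted p = 0.747), mutated in Diamond-Blackfan anaemia, and Rpl22 (-0.35, adjusted p = 0.905).

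In SecPDG versus Stem the same test called no member, while 7 had an unadjusted p under 0.05 and DESeq2 called 3 lower. Of all genes tested, 0.689% were called lower and 2.41% higher. The median of the members was -0.62 on the log2 scale (all expressed genes, -0.05), and 79 of 83 lay below 0. The groups did not overlap for 29 members, with SecPDG lower in each; the share among expressed genes was 15.7%. Rpl10a, part of the L1 stalk that guides spent tRNA out of the ribosome, had 77 to 353 normalized counts in SecPDG against 617 to 789 in Stem, a log2 fold change of -1.60 that missed the threshold (adjusted p = 0.0286). Rpl22 had 4392 to 7543 against 9827 to 12815 (-1.04, adjusted p = 0.156), and Rplp0 barely differed at 21084 to 28251 against 28843 to 30213 (-0.29, adjusted p = 0.798).

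In tuft cells 6 members were called lower than in Stem and none higher, where 2.03% of genes tested were called lower and 4.42% higher (3.5% lower among expressed genes). They included Rpl22, Rps2, Rpl10a, Rplp2 and Rps15a, the last named here after its values were seen. The median over the 83 members was -1.03, against -0.09 for expressed genes, 79 members lay below 0, and 48 had an unadjusted p under 0.05 (1 more was higher at that level). DESeq2 called 29 lower, among them the same 6. In 38 members every Tuft library was below every Stem library (18.2% of expressed genes).

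Rpl22, an RNA-binding protein that the ribosome can do without, had 1820, 4028, 2683, 3861 and 5891 normalized counts in Tuft 1 to 5 and 9827, 11113 and 12815 in Stem 1 to 3. All 5 Tuft libraries were below all Stem libraries, and the log2 fold change was -1.62 ± 0.40 (SE, adjusted p = 0.00528). For Rps2 the values were 2653, 2767, 3124, 2223 and 5194 in Tuft against 10701, 9245 and 9445 in Stem, again without overlap (-1.62 ± 0.38, adjusted p = 0.00345). Other calls were -1.60 ± 0.43 for Rpl10a (adjusted p = 0.00879), -1.40 ± 0.36 for Rplp2, an acidic stalk protein (adjusted p = 0.00686) and -1.40 ± 0.38 for Rps15a (adjusted p = 0.00974). The partner of Rplp2 in the stalk, Rplp1, was at -1.22 and not called (adjusted p = 0.0579).

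Tuft 5, the Tuft library with the fewest reads outside genes, stood nearer to Stem. Its median log2 difference from the Stem mean was -0.26, where Tuft 1 to 4 had -1.78, -1.08, -1.49 and -1.07, and 40 of 84 members lay below every Stem library, compared with 71 to 73 in the other Tuft libraries. With Tuft 5 as the only Tuft library, an alternative chosen after seeing the data, 66 of 83 members were below 0 and the median was -0.25. The spread in that fit comes from the other groups and 1 gene of 23037 was called lower in it, so nothing is read from the absence of member calls there. Without Tuft 5 there were 23 calls, and leaving out any of Stem 1, Stem 2, Stem 3, Tuft 1, Tuft 2 or Tuft 3 left 0 to 2, so the count of 6 rests on each of these libraries. With Tuft replicate 4 left out it was 6.

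In enterocytes more members passed the test. Of 83 tested, 34 were called lower than in Stem and none higher, against 7.93% of all genes tested called lower and 5.6% called higher. Of the expressed genes, from which the calls come, 13.7% were called lower. The median of the members was -1.21 (expressed genes, -0.30), but -0.73 with DESeq2 size factors (0.36) and -0.84 with library totals (0.26). On the main scale 77 were below 0, 54 had an unadjusted p under 0.05 in the lower direction and 1 in the higher, and DESeq2 called 30, all among the 34. Every Enterocyte library was below every Stem library for 47 members (26% of expressed genes) and above for 2.

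Among the called members Rps2 had the largest change, with 1227, 1719, 994, 4502 and 2405 normalized counts in Enterocyte 1 to 5 against 9245 to 10701 in Stem. All Enterocyte libraries lay below all Stem libraries, by a fitted 4.52-fold (log2 -2.17 ± 0.38 SE, adjusted p = 8.53e-05). Rps19 followed, with 303, 534, 311, 1269 and 489 against 2358, 2377 and 2841 (-2.12 ± 0.40, adjusted p = 0.000191), and then Rps4x, the X-linked S4 protein (-1.99 ± 0.46, adjusted p = 0.00175). These 3 are proteins of the small subunit, as are Rps3 at the mRNA entry channel (-1.96 ± 0.39, adjusted p = 0.000384) and Rpsa, known also as a laminin receptor (-1.82 ± 0.42, adjusted p = 0.00183). Of the large subunit, Rpl3, which reaches the catalytic centre, was at -1.96 ± 0.49 (adjusted p = 0.00329), Rpl7a at -1.82 ± 0.39 (adjusted p = 0.000795), Rplp0 at -1.69 ± 0.44 (adjusted p = 0.0045) and Rpl8 at -1.60 ± 0.40 (adjusted p = 0.0034). Rps24, known for spliced isoforms that differ at the C terminus (-1.39 ± 0.39, adjusted p = 0.00719), and Rps27a, made as a fusion with ubiquitin (-1.31 ± 0.39, adjusted p = 0.00905), were called with smaller changes.

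Members known for roles outside the ribosome did not all reach the threshold. Rps6, the substrate of the S6 kinases, was at -1.16 (adjusted p = 0.0163), Rplp2 at -1.02 (adjusted p = 0.0203) and Rpl22 at -0.92 (adjusted p = 0.0577). Rpl11, which with Rpl5 and 5S RNA binds Mdm2, was at -1.15 (adjusted p = 0.137). Both subunits were represented among the calls, with 19 of 51 genes of the large subunit (median -1.19) and 15 of 33 of the small subunit (median -1.22).

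The Enterocyte libraries fell into 2 sets by reads outside genes. Enterocyte 1 to 3 had median log2 differences from the Stem mean of -2.13, -1.76 and -1.53, and 69 to 75 of 84 members lay below every Stem library. Enterocyte 4 and 5 had -0.62 and -0.54, with 61 and 52 members below every Stem library. A fit without the 4 libraries that had over 60% of reads outside genes (Enterocyte 1 to 3 and EEC 1) was an alternative chosen after seeing the data. It called 7 members lower (Rpl18, Rpl3, Rpl7a, Rps19, Rps2 and Rps3 among them), where 700 of 22656 genes tested were called lower. In it 67 of 83 members were below 0, and the median was -0.54 where the expressed genes had 0.05. Subtracting the receptor-based background per kilobase left 17 calls, and leaving out Stem 1, Enterocyte 2 or Enterocyte 3 left 19, 16 and 16. Rps2, Rps19 and Rps3 were called in each of the 8 fits that left out 1 library, and Rps4x and Rpsa too, although not in the fit without those 4 libraries. Rplp0, Rpl3, Rps24, Rps27a and Rpl8 lost the call in 1 to 4 of these 8 fits.

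**Figure D3:**
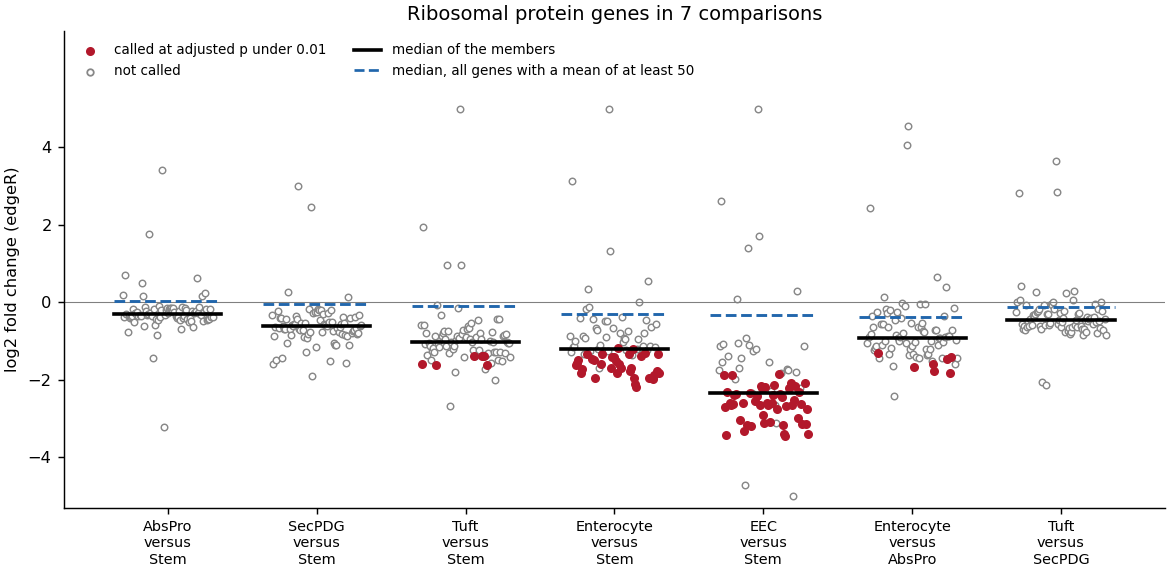
Fitted log2 fold change (edgeR, y axis) of the 83 ribosomal protein genes tested, in 7 comparisons (x axis). Red points were called, white points were not, black bars are the members' medians and dashed bars the medians of all expressed genes (mean normalized count of 50 or more). The 4 points beyond 5 in either direction are drawn at 5. The members' median falls from -0.31 in AbsPro to -2.35 in EEC, and red points appear in the Tuft, Enterocyte and EEC comparisons.

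The enteroendocrine cells had the most calls. There, 51 of the 83 members tested were called lower than in Stem and none higher, against 7.45% of genes tested called lower and 6.58% called higher (12.9% lower among expressed genes). The median was -2.35 (expressed genes, -0.33), 77 members lay below 0, 65 had an unadjusted p under 0.05 and 1 was higher at that level. DESeq2 called 47, all among the 51. For 73 members both EEC libraries lay below every Stem library, although 34.9% of expressed genes did so with only 2 libraries.

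Among the called members Rps2 again had the largest change, with 593 and 1193 normalized counts in the EEC libraries against 9245 to 10701 in Stem, 11.0-fold lower by the fit (log2 -3.45 ± 0.57 SE, adjusted p = 3.51e-05). Rpl14 had 222 and 263 against 2202, 2646 and 2941 (10.7-fold lower, -3.42 ± 0.52, adjusted p = 1.05e-05), and here the EEC libraries lay close together. Rpsa had 1539 and 2906 against 23383, 23265 and 23672, 10.5-fold lower (-3.40 ± 0.63, adjusted p = 0.000156). Rps19 was also 10.5-fold lower, with 132 and 346 (-3.40 ± 0.59, adjusted p = 7.07e-05). Rpl3 (-3.33 ± 0.72, adjusted p = 0.000936), Rpl7 (-3.12 ± 0.63, adjusted p = 0.000473), Rplp0 (-3.08 ± 0.65, adjusted p = 0.000665), Rps3 (-2.98 ± 0.56, adjusted p = 0.000212) and Rpl8 (-2.66 ± 0.57, adjusted p = 0.000879) were all called. Rpl3 had 30.7 and 716 normalized counts in the EEC libraries, and its log2 fold change ran from -6.94 to -2.56 when 1 library was left out. The calls of Rpl3, Rpl7, Rplp0, Rps3, Rpl8 and Rpsa were lost in a fit of the Stem and EEC libraries alone.

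Of the stalk proteins, Rplp2 was called (-2.60 ± 0.51, adjusted p = 0.000342) and Rplp1 was just outside the threshold (-2.30, adjusted p = 0.0105). Rps27a (-2.53 ± 0.55, adjusted p = 0.000972), Rps24 (-2.23 ± 0.55, adjusted p = 0.00266) and Rpl22 (-2.40 ± 0.57, adjusted p = 0.00192) were lower. Rpl5 was called (-2.21 ± 0.66, adjusted p = 0.0092) but lost the call in all 5 fits that left out 1 library. Its partner Rpl11 was at -1.55 (adjusted p = 0.146), with 183 and 0 normalized counts in the EEC libraries. Smaller differences that were not called were those of Rps6, with 204 and 234 against 376, 483 and 581 in Stem (-1.13, adjusted p = 0.0719), and Rpl35, a protein near the exit of the peptide tunnel, with 468 and 528 against 791, 1173 and 1274 (-1.11, adjusted p = 0.0795).

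The calls held in both subunits, with 28 of 51 genes of the large subunit (median -2.31) and 23 of 33 of the small subunit (median -2.46). Members with a tract in the first 30 bases had 21 calls among 32 genes and a median of -2.54, and those without had 30 among 51 and a median of -2.19. In Enterocyte the medians were -1.34 and -1.18, and in Tuft -1.17 and -1.02. These splits describe the members and were not tested.

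EEC 1, with 74.3% of its reads outside genes and the fewest gene counts, had a median log2 difference from the Stem mean of -2.70, and EEC 2 of -2.18. Without EEC 1, a fit which assumes that EEC 2 varies like the other groups, the median was -2.40. Without Enterocyte 1 to 3 as well (chosen after seeing the data) the median was -2.17, where the expressed genes had -0.11. Leaving out any single library left 43 to 49 calls, and without EEC 2 the median was -2.96. A fit of the 5 Stem and EEC libraries alone, which has few residual degrees of freedom, called 5. The receptor-based background exceeded 20% of the count for 3 members in EEC, of which 2 were called lower.

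**Figure D4:**
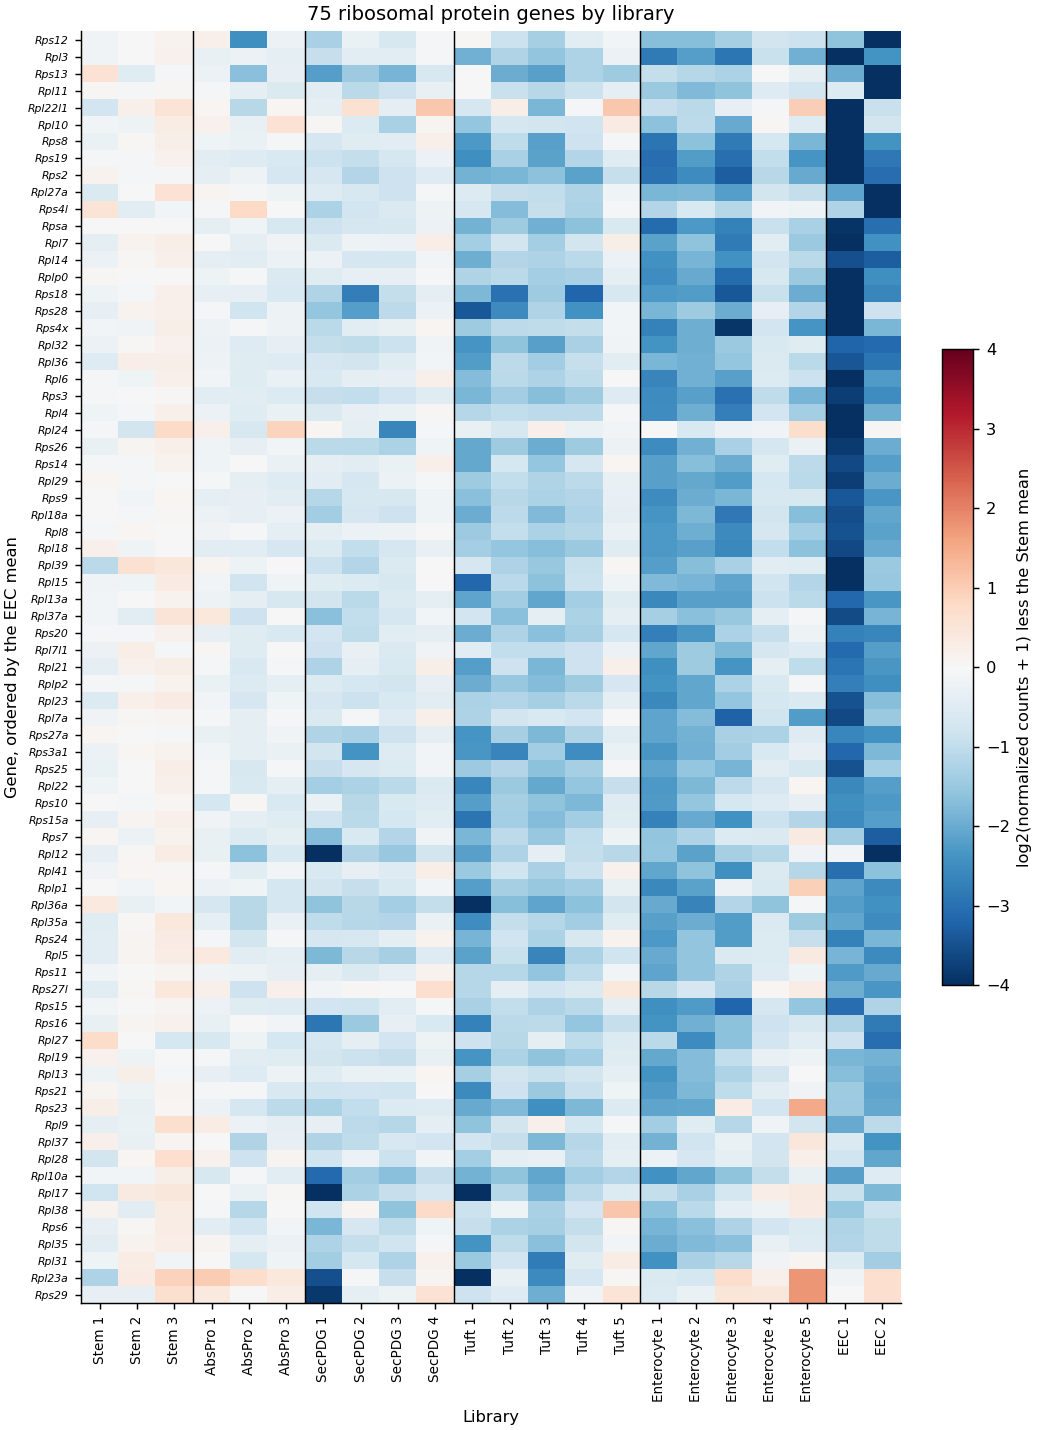
Expressed ribosomal protein genes (75 of the 77, the others are not shown here, ordered by the EEC mean) in the 22 libraries (columns), coloured by log2(normalized counts + 1) less the Stem mean of the gene, limited to -4 and 4. Blue deepens from AbsPro to EEC, while SecPDG 4, Tuft 5, Enterocyte 4 and Enterocyte 5 are paler than the other libraries of their group, and Rps29 stays near or above its Stem level in the Enterocyte and EEC libraries.

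The remaining comparisons set differentiated cells against the progenitors of their own lineage. In Enterocyte versus AbsPro 7 members were called lower (Rpl18, Rpl7a, Rps19, Rps2, Rps3 and Rps4x among them) and none higher, where 3.18% of all genes tested were called lower and 1.91% higher (5.5% lower among expressed genes). The median was -0.92 (expressed genes, -0.39), but -0.42 with DESeq2 size factors (0.28) and -0.49 with library totals (0.21). On the main scale 43 members had an unadjusted p under 0.05 in the lower and 2 in the higher direction, and DESeq2 called 16 lower and 1 higher. For 34 members every Enterocyte library was below every AbsPro library, against 24.1% of expressed genes. Among the calls, the largest changes were those of Rps4x (-1.83 ± 0.46 SE, adjusted p = 0.00764), Rps2 (-1.77 ± 0.38, adjusted p = 0.00236) and Rpl7a (-1.66 ± 0.39, adjusted p = 0.00447).

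Without Enterocyte 1 to 3 and EEC 1 no member was called against AbsPro, where 149 of 22656 genes were called lower, and the median was -0.26 with 56 of 83 below 0. Leaving out AbsPro 2, Enterocyte 2, Enterocyte 3 or Enterocyte 5 left 0 or 1 call, and leaving out AbsPro 1, AbsPro 3, Enterocyte 1 or Enterocyte 4 gave 15 to 27.

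In Tuft versus SecPDG no member was called by either tool, with 4 lower and 1 higher at an unadjusted p of 0.05, and 0.0351% of genes tested called lower and 0.865% higher. The median was -0.44 (expressed genes, -0.13; -0.28 with DESeq2 size factors and -0.18 with library totals) with 72 of 83 below 0, but no member had every Tuft library below every SecPDG library, where 5.54% of expressed genes did. Rps2 was at -0.84 (adjusted p = 0.115). With Tuft 5 as the only Tuft library the median turned to 0.27 and 11 of 83 members were below 0.

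Several members did not follow the order of the group. Rplp0 shows the common pattern, with 30213, 28860 and 28843 normalized counts in Stem, 19593 to 28620 in AbsPro libraries and 21084 to 28251 in those of SecPDG, 12759, 13808, 11306, 11987 and 22302 in Tuft, 5216, 7177, 3436, 18903 and 10581 in Enterocyte and 1607 and 5298 in EEC. Rplp1 began likewise (16928, 15432 and 17695 in Stem, 3581 to 13469 in Tuft, 3901 and 2873 in EEC), but its Enterocyte libraries ranged from 2774 and 3762 in Enterocyte 1 and 2 to 14070, 10824 and 32498 in Enterocyte 3, 4 and 5, a mean of 12786 ± 11997 (SD, n = 5). Enterocyte 5 was therefore above every Stem library, and the group spanned the whole range of the gene.

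Rpl22 and Rpl22l1 are paralogs that replace each other in the ribosome, and Rpl22 is known to repress Rpl22l1. Per kilobase, Rpl22 had the higher counts in every cell type, at 23738 normalized counts per kilobase in Stem against 374 for Rpl22l1, 12562 against 332 in Enterocyte and 7715 against 359 in Tuft. Rpl22l1 shared 50.8% of its 100-base stretches with other genes and Rpl22 shared 0%. The level of Rpl22l1 beside Rpl22 may therefore be undercounted. Rpl22 was 9827 to 12815 normalized counts in Stem, 7326 to 10697 in AbsPro libraries and 4392 to 7543 in those of SecPDG, 1820 to 5891 in Tuft, 2300 to 11924 in Enterocyte and 1859 and 2403 in EEC. Rpl22l1 was 113, 224 and 282 in Stem, 88.7 to 204 in AbsPro libraries and 146 to 405 in those of SecPDG, 53.1 to 405 in Tuft, 91.8 to 385 in Enterocyte and 0 and 103 in EEC. The Rpl22l1 ranges overlapped those of Stem in all groups but EEC, where the difference was not called (-1.97, adjusted p = 0.0845). In EEC the receptor-based background equalled 10.1% of the Rpl22l1 count.

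Rps27l, a p53 target and the relative of Rps27, was 380, 535 and 703 in Stem, 292 to 603 in AbsPro libraries and 487 to 838 in those of SecPDG, 234 to 707 in Tuft, 214 to 636 in Enterocyte and 136 and 104 in EEC. It overlapped Stem in all groups except EEC, where it was called lower (-2.17 ± 0.52 SE, adjusted p = 0.00229). That call was lost without EEC 2. Rps27 itself had hardly any counts, and 98.4% of its stretches were shared with other genes, so the pair cannot be compared.

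Among other pairs, Rpl7 and its nucleolar relative Rpl7l1 both fell, by -1.51 ± 0.43 (SE, adjusted p = 0.00774) and -1.18 ± 0.32 (adjusted p = 0.0059) in Enterocyte and by -3.12 and -2.60 ± 0.46 (adjusted p = 8.66e-05) in EEC. Of the 8 fits that left out 1 library, the Enterocyte call of Rpl7 was lost in 4 (Stem 1, Enterocyte 2, 3 or 5) and that of Rpl7l1 in 3 (Stem 1, Enterocyte 2 or 3). Rpl39 was called in EEC (-2.42 ± 0.65, adjusted p = 0.00516; lost without Stem 2 or EEC 1) and not in Enterocyte (-1.25, adjusted p = 0.0268). Rpl10, with 91.6% of its stretches in 10 other genes, stood at 122 to 177 in Stem, 34.7 to 148 in Enterocyte and 0 and 84.9 in EEC. Rps4x was -2.63 ± 0.65 in EEC (adjusted p = 0.00296, lost without EEC 1), with 148 and 1042 against 3368 to 4285 in Stem. Rps4l, the pseudogene, read 166 and 6.07 in EEC against 283 to 552.

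**Figure D5:**
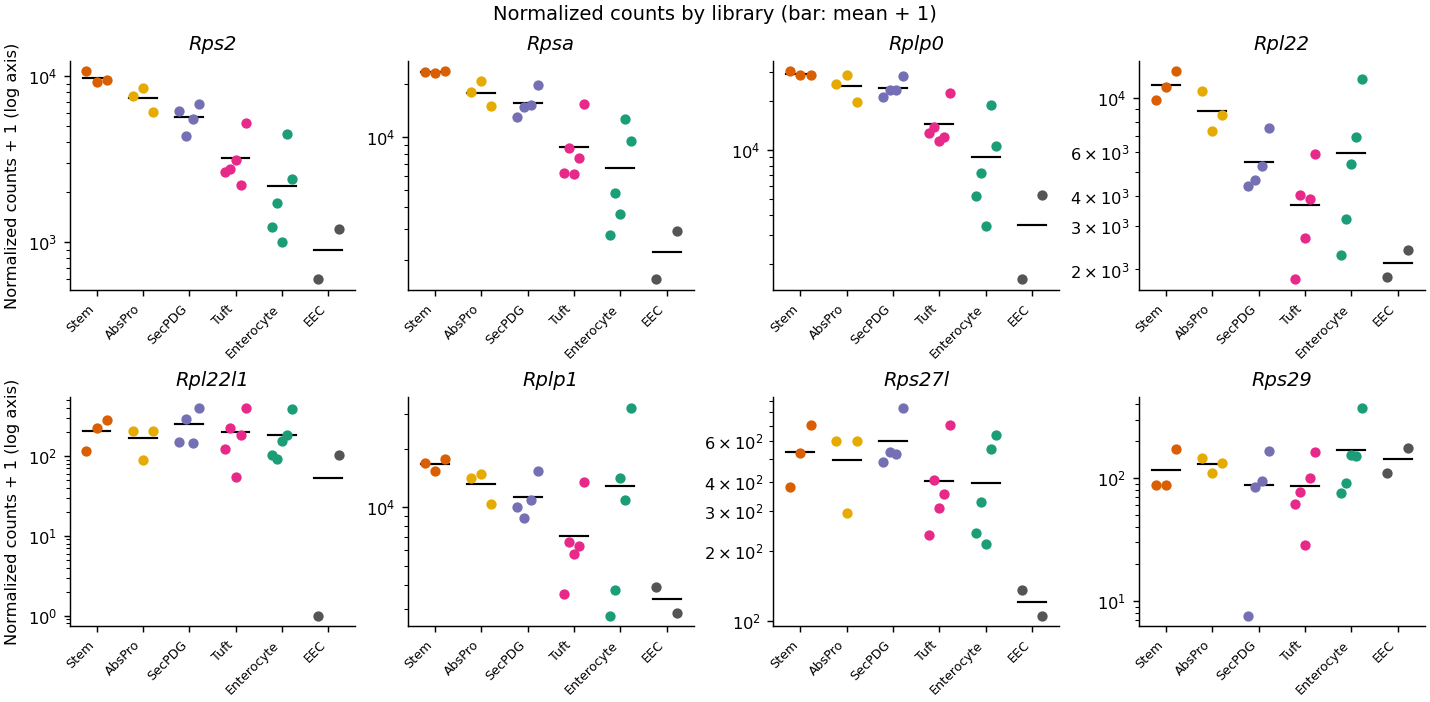
Normalized counts plus 1 (y axis, log scale) of 8 ribosomal protein genes in the libraries of the 6 cell types, with a black bar for the mean plus 1. Rps2, Rpsa and Rplp0 step down from Stem to EEC, Rplp1 spreads from 2774 to 32498 in Enterocyte, Rpl22l1 and Rps27l overlap Stem in all groups but EEC, and Rps29 has both EEC libraries at 110 and 175 beside 87.2 to 172 in Stem.

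To see which members departed from the rest, each library was also scaled to the members themselves. The factor was the median ratio over the members with counts in every library, so that a value gives a gene's level relative to its fellow ribosomal protein genes. The median log2 fold change of the 83 members tested was then 0.01 in AbsPro, -0.02 in SecPDG, 0.09 in Tuft, 0.15 in Enterocyte and 0.26 in EEC. On this scale no member was called in AbsPro, SecPDG or Tuft, with 0, 3 and 4 at an unadjusted p under 0.05. Of all genes, 0% were called lower in AbsPro on this scale, 0.123% in SecPDG and 0.127% in Tuft, and 0.285%, 5.42% and 22.9% higher. In Enterocyte only Rps2 was called lower, at 3432 ± 1003 scaled counts (SD, n = 5) against 6325 ± 1101 in Stem (n = 3), a log2 fold change of -0.88 ± 0.27 (SE, adjusted p = 0.00829), where 0.536% of genes were called lower and 29.5% higher. All 5 Enterocyte libraries (2178 to 4571) were below the Stem libraries (5431 to 7555). This call rests on nearly all libraries, since the adjusted p rose to between 0.0108 and 0.0461 when any except Enterocyte 4 was left out, and was 0.0574 without Enterocyte 1 to 3 and EEC 1. The call was also lost when the replicate number was added to the fit. Rps19 was close behind and not called (-0.78, adjusted p = 0.0134).

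In EEC 3 members were called higher relative to the other members and none lower, where 51.5% of all genes were called higher on this scale and 0.334% lower. They were Rpl35, at 2423 and 1582 scaled counts against 559, 760 and 732 in Stem (1.55 ± 0.32 SE, adjusted p = 0.000252), Rps6, at 1057 and 702 against 265, 313 and 334 (1.53 ± 0.46, adjusted p = 0.00524), and Rps29, a small zinc-binding protein of the small subunit, at 571 and 524 against 61.6, 56.8 and 99.2 (2.91 ± 0.90, adjusted p = 0.00593). Another 10 had an unadjusted p under 0.05 in the higher and 4 in the lower direction. The background equalled 2.13% of the Rpl35 count, 4.48% of the Rps6 count and 2.97% of the Rps29 count in EEC. Rpl35 was called in all 5 fits that left out 1 library, with an adjusted p of at most 0.0087. Rps6 lost the call without Stem 1, Stem 2, Stem 3 or EEC 1 (highest adjusted p = 0.056) and Rps29 without any of the 5 (highest adjusted p = 0.0253). Rps29 also lost it when the replicate number was added to the fit. Without EEC 1 and Enterocyte 1 to 3 none of the 3 was called, while 4 others were called lower and 1 higher (Rpl10a, Rpl11, Rpl27a, Rps12 and Rps4l).

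On the scale of all genes, Rps29 was 87.2, 87.7 and 172 in Stem, 109 to 145 in AbsPro libraries and 6.62 to 165 in those of SecPDG, 27.8 to 161 in Tuft, 74.6 to 375 in Enterocyte and 110 and 175 in EEC. Every group thus overlapped Stem. Rpl22l1 was higher relative to the other members in Tuft and Enterocyte by 1.01 and 1.19 on the log2 scale, without passing the test (adjusted p = 0.257 and 0.176), and Rpl22 was lower in Tuft by -0.50 (adjusted p = 0.0751).

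Genes that work with the ribosomal proteins were counted on the same test. Against Stem it called 3.5% of expressed genes lower in Tuft, 13.7% in Enterocyte and 12.9% in EEC. In Enterocyte versus AbsPro it called 5.5% lower. The medians of expressed genes against Stem were -0.09, -0.30 and -0.33 in Tuft, Enterocyte and EEC. Ribosomal protein genes that the naming rule left out include Fau, Rpl36al and Gnb2l1 (which encodes Rack1). Gnb2l1 was lower in Enterocyte (-2.08) and in EEC (-3.28), and Rpl36al in EEC (-2.21). Fau, made as a fusion with a ubiquitin-like protein, was at 0.38 in Enterocyte and -2.29 in EEC and was not called.

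The list of elongation factors and other mRNAs known for a terminal tract held 16 genes, of which 13 were called lower in EEC (median -2.18), 11 in Enterocyte (-1.62) and 2 in Tuft. The calls included Eef1b2 (-3.10), Eef1g (-2.99) and the initiation factor subunits Eif3h (-2.83) and Eif3e (-2.77) in EEC, and the histone chaperone Nap1l1 (-2.68), Eef1g (-2.05), Eif4b (-1.80) and the nucleolar Npm1 (-1.77) in Enterocyte. In Tuft they were Npm1 (-1.39) and Nap1l1 (-1.33).

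Of 20 ribosome assembly genes, 15 were lower in EEC (median -2.37), 18 in Enterocyte (-1.74) and 9 in Tuft. The box H/ACA proteins Nhp2 and Dkc1 were at -3.70 and -3.21 in EEC and the box C/D protein Nop56 at -3.42, and in Enterocyte Nop56 was at -2.48, Nhp2 at -2.44, Nolc1 at -2.42 and Dkc1 at -2.07. Fibrillarin (Fbl, -2.0) and Gar1 (-1.58) were the furthest below Stem among the calls in Tuft. Mitochondrial ribosomal proteins, which serve another ribosome, had 33 of 76 genes lower in EEC (median -1.64, with Mrpl19 at -3.23 and Mrps30 at -3.13), 16 in Enterocyte (-0.88) and 5 in Tuft. Among 12 regulators of ribosomal protein mRNA, Myc, which drives ribosomal genes, was lower in Tuft (-1.89), Enterocyte (-3.49) and EEC (-3.78). Larp1 and Eif4ebp2 were lower in Enterocyte (-1.54 and -1.22) and in EEC (-1.87 and -1.77), Eif4ebp1 in EEC (-2.10), and no other regulator was called in these comparisons.

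None of these lists had a call in AbsPro, SecPDG or Tuft versus SecPDG. At an unadjusted p under 0.05 the assembly list had 3 genes lower in AbsPro, 5 in SecPDG and 7 in Tuft versus SecPDG. Of all 22781 genes tested, 977, 1503 and 925 were lower at that level. In Enterocyte versus AbsPro 5 tract mRNAs, 10 assembly genes, 10 mitochondrial ribosomal proteins, 1 regulator and Gnb2l1 were lower. Proliferation markers, which moved in the same order as the members apart from SecPDG, summed to 2502 CPM in Stem, 1663 in AbsPro, 2265 in SecPDG, 1301 in Tuft, 558 in Enterocyte and 218 in EEC. Summed markers of immune cells were 6.15 CPM in Stem, 137 in Tuft, 52.1 in Enterocyte and 121 in EEC. Those of stromal cells were 9.36 in Stem, 26.4 in Tuft, 85.9 in Enterocyte and 148 in EEC (18.1 and 278 in its libraries), and those of endothelial cells 0.933, 21.1, 53.4 and 118 in the same groups. All 3 sums were thus higher in Tuft, Enterocyte and EEC than in Stem. In AbsPro they were also above Stem, at 10.85 for immune, 28.2 for stromal (1.94 to 79.1 in its libraries) and 2.60 for endothelial markers. The SecPDG values were 3.26, 2.07 and 1.915. The part of any of these markers in the members' levels was not tested.

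Skipped exons were compared in the same cells from the reads that included or skipped an exon. In member genes 14 events in AbsPro, 16 in SecPDG, 17 in Tuft, 15 in Enterocyte and 10 in EEC had enough reads, and none was called against Stem (limma on log2 inclusion ratios, adjusted p under 0.05), with 0, 2, 5, 4 and 1 at an unadjusted p under 0.05. Over all genes, 7 events were called in Enterocyte (0.186%), 4 in EEC (0.236%) and none in the other comparisons. Most of these events were included in nearly all or nearly no transcripts, where the log2 ratio moves with the number of reads, so the test says little about them and values are given. The 105-base exon of Rpl22 at chr4:152327481-152327585 (mm10) was included in 99.9% ± 0.187 (SD, n = 3) of the Stem transcripts and in 100% in the AbsPro, Enterocyte and EEC libraries. The 20-base exon of Rps24 at chr14:24495430-24495449 was the opposite, included in 0% in Stem and 0.154% in Tuft, and overlapping exons of Rpl22 that end at positions 152329409 and 152329413 were included in 0.0071% and 0.146% in Stem. An 82-base exon of Rpl35 stood at 99.9% ± 0.180 in Stem and at 100% and 76.2% in the EEC libraries, a gap that rests on 1 library.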

How the data were processed

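RNA from sorted colon epithelial cells was made into libraries with a low-input kit and sequenced as 100-base paired reads. As the submitters' notes and methods state, the authors trimmed the reads, checked them with FastQC 0.11.7, aligned them to mm10 with STAR 2.5.2a, handled alignments with SAMtools 1.3 and counted reads per gene with HTSeq 0.6.1p1 without strand. The deposited values are raw counts per gene and library; reads with several places in the genome were not counted, and overlapping genes cannot be told apart. Rows naming no gene (54.0% to 91.6% of the reads set out in a table) were kept out of library sizes and tests. The inclusion and skipping reads of exons are the deposited rMATS values, whose cell types are given by the tables' names alone; the authors' own comparison columns (p-values, differences), their MAJIQ output and their polyadenylation output were not used.

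All 22 libraries entered 1 edgeR 4.0.16 quasi-likelihood fit in R 4.3.3 with cell type as the only term, TMM factors (0.616 to 1.84) and filterByExpr, and p-values were adjusted over all 22781 genes passing. A gene was called where the adjusted p was below 0.01 and its mean normalized count 50 or more. DESeq2 1.42.0 was an alternative, and its counts of called members are given without a share over all genes. Skipped exons were tested with limma 3.58.1 on log2 inclusion ratios with 0.5 added, for events with a mean of at least 20 reads. Tables were handled with pandas 2.3.3 and numpy 2.4.6 in Python 3.11.15. The self-test on simulated counts recovered 48 of 50 genes set 4-fold lower (a log2 change of -2) and 15 of 50 set at -1 in AbsPro versus Stem, and 45 and 6 of 50 in EEC versus Stem. All simulated libraries were drawn from a common mean profile with the same fixed dispersion for every gene and group. The spread of the real libraries was not used, so these numbers do not measure how many changes the test finds in these data.

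Gene counts per library ranged from 4122122 to 22462518. Intervals of shares at this depth cover counting error only and are far below the spread between libraries. Transcript lengths, 5′ ends and shared 100-base stretches came from GENCODE M21 on GRCm38, the mm10 build.

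The members and lists were chosen with earlier results of these data known. Named genes are, by rule, the 3 called members with the largest change in each direction and no overlap in each comparison, on both scales, paralog pairs, members with known special roles, those with a mean under 50 and those at the ends of the order per kilobase. Alternatives were other scalings, thresholds and filters, DESeq2, a replicate block, thinned counts, subtraction of background, fits of only 2 cell types and leaving out each library. Some members are not reported here by name; they remain in the counts and medians.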

Additional observations from a re-analysis of the deposited data

Results flagged for a closer look

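Among 37 named genes and the shares per library, 111 groups of 4 or 5 libraries with any spread were screened for a library far from the others of its cell type. Of these groups, 12 were found (10.8%). The limit marks about 1 in 20 of independent groups with normal values. The genes here come from the same libraries and move together, so the share found is not compared with that rate. Of the 12, 6 were Tuft 5, which had higher normalized counts than the other Tuft libraries for Rpl7 (10775, others 3536 to 5429), Rplp0 (22302, others 11306 to 13808), Rpsa (15457, others 6124 to 8705), Rps3 (11979, others 4904 to 6621), Rps4x (3374, others 1378 to 1889) and Rps6 (484, others 190 to 248). Enterocyte 4 stood above its group for Rps19 (1269, others 303 to 534) and Enterocyte 5 for Rps29 (375, others 74.6 to 154). These 3 libraries had the fewest reads outside genes among those of their cell type (35.9%, 56.0% and 55.5%), and the part of these reads was not tested. In SecPDG, replicate 4 was high for Rps27l (838, others 487 to 538) and replicate 1 for Rpl30 (96.4, others 0 to 6.22). SecPDG replicate 2 alone had counts of Rpl10l (4.97 normalized counts) and Rpl39l (2.49), where the other SecPDG libraries had 0.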

How the results depend on the processing

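All results are limited by 2 EEC libraries, by reads outside genes that differ with cell type, and by sequence that many members share with other genes. Of 606 recomputed values of the main results, 523 stayed on their side and near their value, 82 moved and 1 reversed; of 1278 for single genes, 152 lost a call, 30 gained one and none reversed. Scaling moved the median of all genes with a mean of at least 50 from -0.30 to 0.36 in Enterocyte and from -0.33 to 0.53 in EEC (DESeq2 size factors), but the members' median less that median stayed between -0.91 and -1.10, and between -2.02 and -2.15. The causes of the moves below were not tested.

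Calls lower in SecPDG (0) were 1 at adjusted p under 0.05, 3 with DESeq2 and with library totals, 2 with size factors and 4 with only the 2 cell types. In Tuft (6) they were 33, 29, 27, 15 and 37 in that order of settings, 14 without a filter, 11 with thinned counts, 1 less background and 0 with Tuft 5 alone (median -0.25). In Enterocyte (34) they were 17 less background and 7 with at most 60% of reads outside genes (no Enterocyte 1 to 3 or EEC 1). In the latter fit 700 of 22656 genes were called lower. In EEC (51) they were 5 with only the 2 cell types, and the median was -1.63 with DESeq2 and with its size factors. In Enterocyte versus AbsPro (7) they were 34 at adjusted p under 0.05, 16 (and 1 higher) with DESeq2, 12 thinned, 1 less background and 0 with at most 60% of reads outside genes. The median of Tuft versus SecPDG reversed to 0.27 with Tuft 5 alone. Scaled to the members, Enterocyte had 5 lower and 2 higher at adjusted p under 0.05 and none lower at 2-fold or with at most 60% of reads outside genes, and EEC had 4 lower and 9 higher, 5 higher with summed members, and 4 lower and 1 higher with at most 60%. The members' share became 2.48%, 1.88% and 0.530% in Stem, AbsPro and EEC without the 10 most abundant genes, and 1.11%, 0.845%, 0.728%, 0.408%, 0.251% and 0.0949% from Stem to EEC when reads outside genes were added to the total. Skipped exon calls in members in Enterocyte (0) were 3 with 1 added to the reads and 1 with a mean of at least 50 reads.

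Leaving out 1 library gave 0 to 23 calls in Tuft, 16 to 37 in Enterocyte, 43 to 49 in EEC (median -2.96 to -2.40) and 0 to 27 in Enterocyte versus AbsPro. Scaled to the members it gave 0 to 2 lower in Enterocyte, and 0 to 7 lower and 1 to 8 higher in EEC.

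Libraries of different cell types share replicate numbers, but the correlation of same-numbered deviations was -0.0996 to 0.309, and the labels give the number no other meaning, so the numbers were not taken to pair the samples. With the replicate block, calls were 2 in SecPDG, 42 in Tuft and 46 in Enterocyte versus AbsPro.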
